A study of Mus musculus with 12 samples.

Results

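The 10 genes described here encode the machinery of the G1 decision: the D-type cyclins Ccnd1, Ccnd2 and Ccnd3, the kinases Cdk4 and Cdk6, the Cip/Kip inhibitors Cdkn1a, Cdkn1b and Cdkn1c, and the INK4 inhibitors Cdkn2c and Cdkn2d. They were chosen by their role in G1 from the 53379 gene rows of the count tables. No threshold on measured values was used, but earlier results of these data were known. All 10 passed the filter on low counts that left 13318 genes for testing. The sequenced RNA came from the external granule layer, cut by laser from central lobules of the cerebellum, in C57BL/6 mice on postnatal day 6. The knockout mice lacked SnoN, a transcriptional regulator encoded by Skil, through a conditional allele, and the controls were wild-type littermates. The sources used here name neither the Cre driver nor the deleted part of Skil. Each genotype had 6 libraries, WT1, WT2, WT3, WT5, WT6 and WT7 for wild type and KO2, KO3, KO4, KO5, KO6 and KO8 for knockout. WT2 and KO4 carry the submitters' outlier mark, so the comparison used 5 wild-type and 5 knockout libraries. Nothing in the labels says that libraries came from separate animals, and the p-values therefore cover only the spread between libraries, which may be technical. The study's title puts the proliferation of granule neuron precursors at its centre, and the question for these genes is whether their transcripts differ when SnoN is removed.

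D-type cyclins bind CDK4 or CDK6, and the complexes phosphorylate the retinoblastoma protein, which releases E2F factors and lets a cell enter S phase. INK4 proteins bind the kinases and keep the D cyclins away, while Cip/Kip proteins bind whole cyclin-kinase complexes. In the external granule layer, Sonic hedgehog from Purkinje cells keeps precursors cycling and is known to raise D-type cyclins and Mycn, and Cdkn1b and the INK4 inhibitors are known to accumulate around cell cycle exit.

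Gene counts summed to between 7520076 and 15083086 per library. Skil was at 38.5 to 57.8 CPM (counts per 1000000 counts, scaled by the TMM method) in the 5 wild-type libraries and 20.9 to 36.7 CPM in the 5 knockout libraries, with no overlap. Its log2 fold change of -0.70 (SE 0.15) had an adjusted p of 0.122 over all genes in edgeR's quasi-likelihood test. It passed with DESeq2 (adjusted p = 0.0104), in edgeR without a filter beyond a count of 1 (adjusted p = 2.59e-04), without KO5 (log2 fold change -0.59, adjusted p = 0.00272) and with the GC trend described below removed (log2 fold change -0.94, adjusted p = 7.32e-04). Skil did not pass in the other alternative fits. Among these, the adjusted p was 0.0833 with voom, 0.785 in edgeR with KO2 counted as wild type and 0.999 in edgeR with all 12 libraries. Its sign held in all 23 alternative fits. KO2 is titled as a knockout but carries a wild-type genotype tag; its Skil value was 36.1 CPM. WT2 was at 76.5 CPM and KO4 at 14.0 CPM. Markers of granule neuron precursors summed to 2611 to 2845 CPM (wild type) against 2561 to 3188 CPM (knockout) (10 of 10 tested). Markers of differentiating granule neurons were also present, so the tissue was not precursors alone. They summed to 3542 to 5814 CPM (wild type) against 3966 to 7302 CPM (knockout) (8 of 10 tested), with Neurod1 weighing most. Of that list Gabra6, a marker of mature granule neurons, had 0 counts in 8 of the 10 libraries. Sums over different lists do not measure the shares of cell types. Markers of cell types outside the granule lineage were present at lower sums, of which those of Purkinje cells and Bergmann glia are given beside the results they touch. In bulk tissue, fewer cells of a type and less RNA per cell cannot be told apart.

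The regulatory sequence just before the start sites is shown for Ccnd3, Cdk4 and Cdk6, because these 3 members had the smallest p-values in the comparison below. Windows of 250 bases before each annotated start came from RefSeq (GRCm38.p6) and were matched for 7 of the 10 members; Ccnd1, Ccnd2 and Cdkn1c had no entry. Each line gives the plus strand, which is the coding strand of these genes, 5′ to 3′. Capitals mark the E-box CACGTG, which Myc family proteins bind, and the GC box GGGCGG or its reverse complement CCGCCC, which Sp1 family proteins bind. 
Cdk4, chr10:127063285-127063534: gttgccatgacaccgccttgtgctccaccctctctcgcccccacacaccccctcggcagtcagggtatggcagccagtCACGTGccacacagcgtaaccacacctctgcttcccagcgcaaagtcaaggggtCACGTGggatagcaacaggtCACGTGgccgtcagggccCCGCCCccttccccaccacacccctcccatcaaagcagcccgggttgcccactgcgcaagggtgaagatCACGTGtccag
Cdk6, chr5:3343643-3343892: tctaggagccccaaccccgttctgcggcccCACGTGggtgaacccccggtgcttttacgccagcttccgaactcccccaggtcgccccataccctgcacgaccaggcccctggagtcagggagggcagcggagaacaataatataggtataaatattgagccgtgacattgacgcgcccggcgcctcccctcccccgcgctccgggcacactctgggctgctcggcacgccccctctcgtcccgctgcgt
Ccnd3, the first of 2 starts, chr17:47504801-47505050: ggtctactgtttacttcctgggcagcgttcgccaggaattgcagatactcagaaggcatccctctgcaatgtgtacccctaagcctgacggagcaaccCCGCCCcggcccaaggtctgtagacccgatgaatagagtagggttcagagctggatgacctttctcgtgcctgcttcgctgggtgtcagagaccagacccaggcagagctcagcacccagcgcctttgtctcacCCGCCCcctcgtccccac
Ccnd3, the second start, chr17:47593217-47593466: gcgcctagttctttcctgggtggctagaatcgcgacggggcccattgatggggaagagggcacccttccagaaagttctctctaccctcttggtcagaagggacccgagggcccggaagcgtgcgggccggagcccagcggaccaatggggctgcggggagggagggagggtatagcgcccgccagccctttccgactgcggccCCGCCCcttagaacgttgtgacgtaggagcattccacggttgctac
The Cdk4 window held 4 E-boxes, a number reached by 7 of 32851 windows of this length (0.0213%). The Cdk6 window held 1 E-box, as did 6.02% of all windows with at least 1. The windows of Ccnd3 held 2 and 1 GC boxes and no E-box; 32.7% of all windows held at least 1 GC box. Searched on both strands, the E2F motifs TTTCGCGC and TTTGGCGC, the GLI motif GACCACCCA and the SMAD palindrome GTCTAGAC were found in none of the members' 10 windows, and each of these motifs was in under 1% of all windows. The SMAD-binding CAGA box CAGACA had 1 match at Cdkn1a and 1 at Cdkn2c, against 17.1% of all windows with at least 1. A match is a description of the letters and not of binding.

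Levels of different genes were compared as CPM per kb of annotated exon. In wild type, Cdk4 stood highest at 253 ± 20.9 CPM per kb (SD, n = 5), above 98.7% of all genes tested, and was above every other member in all 10 libraries. Next came 3 inhibitors at close levels: Cdkn1b at 107 ± 10.5, Cdkn2c at 106 ± 15.9 and Cdkn2d at 94.2 ± 5.37 CPM per kb. These neighbours could not be ordered beyond their spread, since Cdkn1b was above Cdkn2c in 6 of 10 libraries and Cdkn2c above Cdkn2d in 7 of 10. Ccnd2 followed at 59.7 ± 6.24 CPM per kb and was below Cdkn2d in all 10 libraries. Cdkn1c was at 35.8 ± 7.14 and Ccnd1 at 24.7 ± 6.21 CPM per kb, in this order in 8 of 10 libraries. At the bottom were Cdkn1a at 8.42 ± 1.01, Cdk6 at 3.28 ± 0.473 and Ccnd3 at 2.21 ± 0.457 CPM per kb, each above the next in all 10 libraries. The order of the group means was the same in knockout. With the longest transcript in place of all exons, Cdkn1b and Cdkn2c changed places, as did Cdk6 and Ccnd3.

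Within each role the level per length was uneven. Ccnd2 held 69.3% ± 3.44 (SD, n = 5) of the D cyclin total in wild type and 72.4% ± 2.66 in knockout, Ccnd1 held 28.2% ± 3.51 and 25.9% ± 2.35, and Ccnd3 held 2.6% ± 0.40 and 1.7% ± 0.37. Cdk4 made up 98.7% ± 0.23 of the kinase total in wild type and 98.0% ± 0.56 in knockout. Among the Cip/Kip inhibitors Cdkn1b held 70.8% ± 1.61 in wild type, Cdkn1c 23.6% ± 1.86 and Cdkn1a 5.6% ± 0.63. The INK4 total was split between Cdkn2c (52.7% ± 4.51) and Cdkn2d (47.3% ± 4.51).

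**Figure D1:**
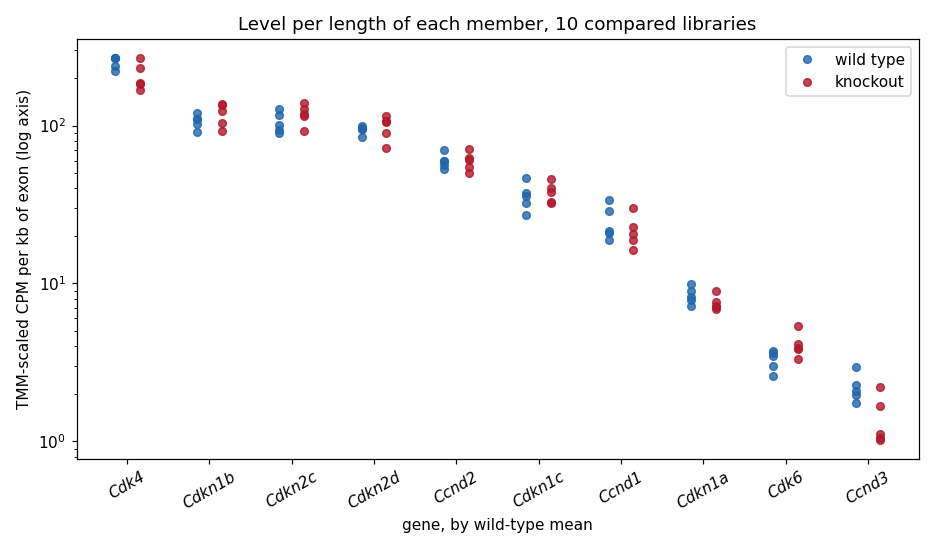
Level of each member per kb of exon (log axis) in the 10 compared libraries, blue for wild type and red for knockout, ordered by the wild-type mean. Cdk4 is the highest in every library, Cdkn1b, Cdkn2c and Cdkn2d overlap, and Ccnd3 is the lowest.

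No member differed between knockout and wild type at an adjusted p under 0.05 in edgeR's quasi-likelihood test over 13318 genes, where 3 genes (0.0225%) passed. At an unadjusted p under 0.05 there were 3 members, Ccnd3 and Cdk4 with lower means in knockout and Cdk6 with a higher mean. That is 3 of 10, where 21.9% of all genes tested lay under the same level (11.8% higher and 10.1% lower), so the members' share was near that of all genes. For none of the 10 did the groups fail to overlap, against 2.37% of all genes (1.05% higher and 1.32% lower). DESeq2 called no member among its 461 genes (3.46%), and voom with quality weights, which used all 12 libraries, called none among 3. In both the same 3 members were under an unadjusted p of 0.05, as were 23.3% of all genes with DESeq2 and 26.8% with voom. The median log2 fold change was 0.03 over the members and 0.001 over all genes tested.

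**Figure D2:**
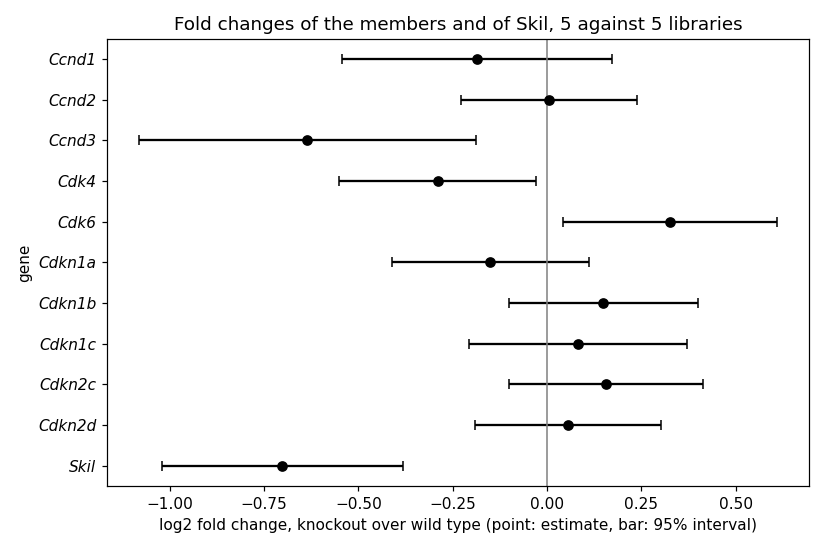
Log2 fold change of each member and of Skil, knockout over wild type, with its 95% interval from edgeR's quasi-likelihood fit to 5 against 5 libraries. The intervals of Ccnd3, Cdk4, Cdk6 and Skil leave out 0 before adjustment over all genes, and the interval of Ccnd2 is centred close to 0.

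Among the D cyclins, Ccnd3 had the smallest p of all members. Ccnd3 (ENSMUSG00000034165.16, chromosome 17, 47505051 to 47599691 in GRCm38, plus strand) is the D cyclin best known from lymphoid and other differentiating tissues. It was at 18.4 (WT1), 20.0 (WT3), 17.2 (WT5), 25.9 (WT6) and 15.4 (WT7) CPM, and at 9.15 (KO2), 14.8 (KO3), 19.3 (KO5), 9.77 (KO6) and 8.995 (KO8) CPM. All knockout libraries except KO5 lay below the lowest wild-type library, and KO5 lay among the wild-type values. The log2 fold change was -0.64 (SE 0.21, 95% interval -1.08 to -0.19; unadjusted p = 0.00787, adjusted p = 0.141 in edgeR's test), and a two-sided exact permutation test gave p = 0.0476, where 0.00794 is the smallest that 5 against 5 libraries allow. WT2 had 8.63 CPM and KO4 15.5 CPM, the opposite order. Ccnd3 rested on 94 to 254 reads per compared library, the fewest of the members. It overlaps Bysl on the opposite strand, and counting without strand cannot assign reads from the overlap to either gene. Such reads would be in the ambiguous summary row, which was left out, so Ccnd3 may be undercounted. A pseudogene, Ccnd3-ps, is also annotated, so the counts of Ccnd3 are uncertain.

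Ccnd1 (chromosome 7, 144929931 to 144939925, minus strand), the D cyclin induced by mitogens in many cell types, varied widely within both groups. It was at 101 (WT1), 98.2 (WT3), 89.0 (WT5), 158 (WT6) and 135 (WT7) CPM, and at 89.3 (KO2), 107 (KO3), 141 (KO5), 96.6 (KO6) and 76.9 (KO8) CPM. The groups overlapped over most of their range, and WT6 and KO5 were the highest library of their group. The log2 fold change was -0.19 with a 95% interval from -0.54 to 0.17, which allows a decrease of 31.4% or an increase of 12.6%. Ccnd2 (chromosome 6, 127125162 to 127152193, minus strand), the main D cyclin of these libraries by level, is required for normal cerebellar growth in mice. It was at 531 (WT1), 498 (WT3), 561 (WT5), 656 (WT6) and 564 (WT7) CPM, and at 588 (KO2), 572 (KO3), 672 (KO5), 516 (KO6) and 473 (KO8) CPM. WT6 and KO5 were again the highest of their groups, and the groups overlapped over nearly their whole range. Its log2 fold change of 0.01 had a 95% interval from -0.23 to 0.24.

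**Figure D3:**
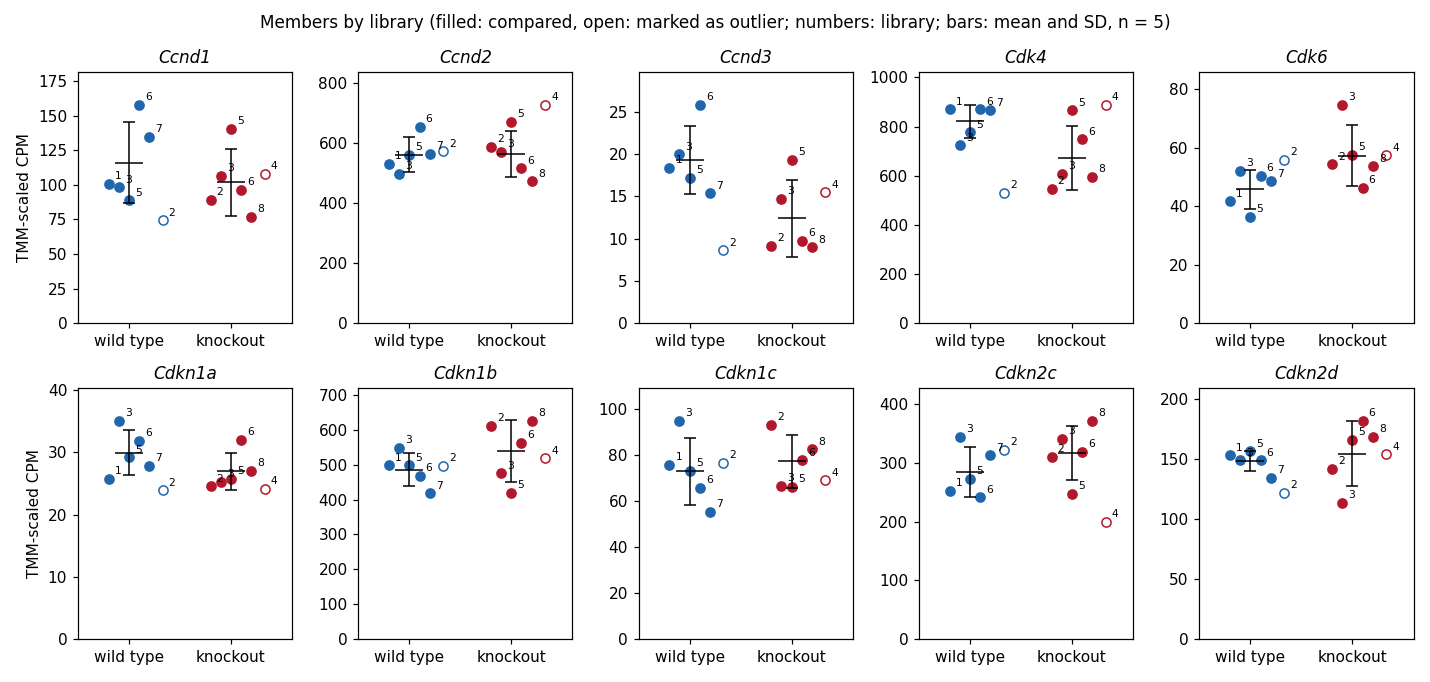
TMM-scaled CPM of each member by library, with library numbers beside the points, blue for wild type and red for knockout. Filled points are the compared libraries with their mean and SD (n = 5), and open points are the marked libraries WT2 and KO4. Knockout library 5 lies with or above the wild-type values for Ccnd3, Cdk4 and Ccnd1, and WT2 lies below the other wild-type libraries for Ccnd3 and Cdk4.

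Of the kinases, Cdk4 (chromosome 10, 127063534 to 127067920, plus strand), the partner of D cyclins in most neural precursors, was at 871 (WT1), 724 (WT3), 777 (WT5), 871 (WT6) and 866 (WT7) CPM. In knockout it was at 547 (KO2), 608 (KO3), 865 (KO5), 747 (KO6) and 595 (KO8) CPM. KO2, KO3 and KO8 lay below every compared wild-type library, and KO5 and KO6 lay within the wild-type range. The log2 fold change was -0.29 (SE 0.12, 95% interval -0.55 to -0.03; unadjusted p = 0.0314, adjusted p = 0.191 in edgeR's test; two-sided exact permutation p = 0.0635). WT2, at 531 CPM, was below all other libraries, and KO4, at 889 CPM, was above all others. Cdk4 overlaps Tspan31 on the opposite strand, as Ccnd1 does LTO1, and Ccnd2, Cdk6 and Cdkn1c overlap predicted transcripts.

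Cdk6 (chromosome 5, 3341485 to 3531008, plus strand), the other kinase that D cyclins activate, had the higher mean in knockout. It was at 41.8 (WT1), 52.1 (WT3), 36.3 (WT5), 50.5 (WT6) and 48.6 (WT7) CPM, and at 54.4 (KO2), 74.8 (KO3), 57.7 (KO5), 46.4 (KO6) and 53.7 (KO8) CPM. All knockout libraries except KO6 lay above the highest wild-type library. The log2 fold change was 0.33 (SE 0.14, 95% interval 0.04 to 0.61; unadjusted p = 0.0268, adjusted p = 0.181 in edgeR's test; two-sided exact permutation p = 0.0635). WT2 (55.9 CPM) and KO4 (57.5 CPM) were close to each other. The log2 ratio of Cdk4 to Cdk6 within a library does not depend on the scaling. The GC trend described below was not removed from it. The ratio differed by -0.62 between the group means, the largest difference among the 4 ratios examined. The others were -0.18 (Ccnd1 to Ccnd2), -0.29 (Cdkn1a to Cdkn1b) and 0.12 (Cdkn2c to Cdkn2d). For Cdk4 to Cdk6, 3 of the 5 knockout libraries lay below the lowest compared wild-type ratio. WT2 lay below all compared wild-type libraries, and with all 12 libraries the difference was -0.40. Purkinje cell markers also had higher values in knockout: 4 of the 5 tested were higher at an unadjusted p under 0.05, as were 11.8% of all genes. They summed to 220 to 327 CPM (wild type) against 281 to 522 CPM (knockout). KO3 was the highest compared library for them as for Cdk6, and WT2 had 645 CPM. Of the 7 listed, Skor2 had 0 counts in 3 of the 10 libraries and Ppp1r17 had 1 to 20 counts. Bergmann glia and astrocyte markers summed to 567 to 957 CPM (wild type) against 788 to 1220 CPM (knockout), with 1 of 7 higher at that level and none of the 7 at 0 counts; WT2 had 1975 CPM. The part of these cells in the Cdk6 values was not tested.

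Values of Cdk4 and Ccnd3, and less closely those of Cdk6, moved with the libraries' GC trend, whose source was not tested. For each library log2 CPM was fitted against transcript GC content, and the trend was summarised as the fitted value at 55% minus that at 45% GC, relative to the mean of the 12 libraries. This was 0.05 to 0.30 in the 5 wild-type libraries, -0.20 to -0.24 in KO2, KO3 and KO8, 0.02 in KO6 and 0.20 in KO5. In WT2 it was -0.52 and in KO4 0.17. The libraries with the lowest trend (WT2, KO2, KO3 and KO8) were the 4 lowest for Cdk4, in either genotype. They were also the 4 lowest for the log2 ratio of Cdk4 to Cdk6, at 3.25 (WT2), 3.33 (KO2), 3.02 (KO3) and 3.47 (KO8). The ratio with the trend removed was not tested. Transcript GC content is 53.3% for Cdk4, 56.7% for Ccnd3 and 45.1% for Cdk6. With this trend removed as an offset in edgeR's fit, the log2 fold change was -0.48 for Ccnd3 (unadjusted p = 0.0163, adjusted p = 0.230), -0.19 for Cdk4 (unadjusted p = 0.0657, adjusted p = 0.348) and 0.22 for Cdk6 (unadjusted p = 0.0988, adjusted p = 0.402). In that fit the members under an unadjusted p of 0.05 were Ccnd3 and Cdkn2c, and 15.7% of all genes were.

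**Figure D4:**
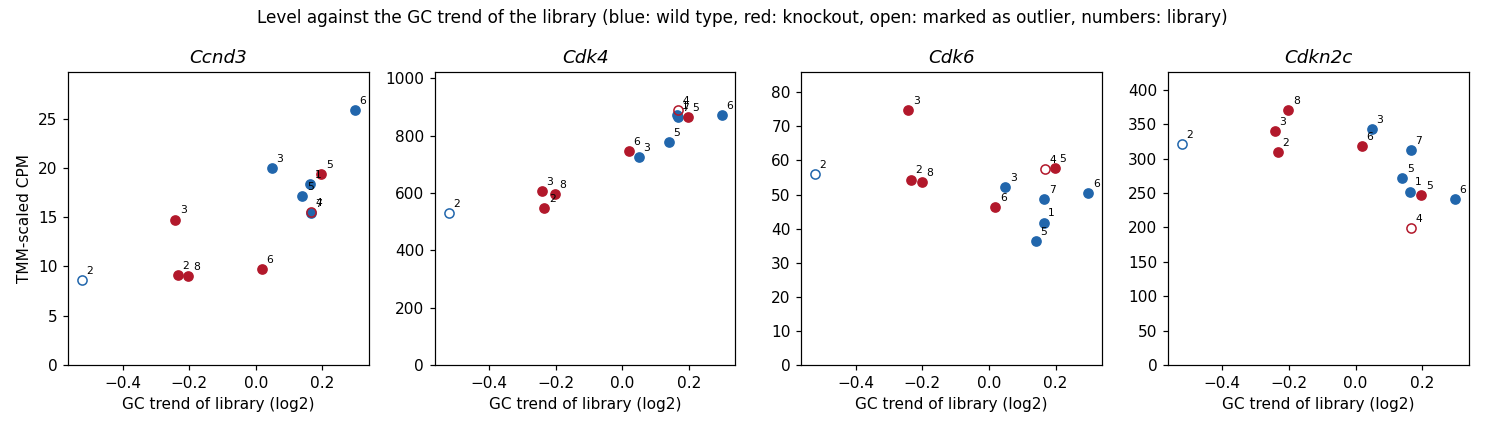
TMM-scaled CPM of Ccnd3, Cdk4, Cdk6 and Cdkn2c against the GC trend of each library (log2 units), blue for wild type, red for knockout, open for the marked libraries, with library numbers beside the points. The 4 libraries with the lowest trend are the 4 lowest for Cdk4, while Cdkn2c tends to be lower at a higher trend.

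The Cip/Kip inhibitors could not be told apart between the groups beyond their spread. Cdkn1b (chromosome 6, 134920401 to 134925513, plus strand), the inhibitor whose loss enlarges organs and prolongs precursor division, was at 498 (WT1), 548 (WT3), 498 (WT5), 468 (WT6) and 418 (WT7) CPM, and at 611 (KO2), 475 (KO3), 419 (KO5), 562 (KO6) and 624.8 (KO8) CPM. KO2, KO6 and KO8 lay above the highest wild-type library and KO5 near the lowest. The log2 fold change was 0.15 with a 95% interval from -0.10 to 0.40 (edgeR adjusted p = 0.467). KO2 and KO8, the highest for Cdkn1b, also had the highest sums of differentiating granule neuron markers (7302 and 7293 CPM, against 3542 to 5814 CPM in wild type). WT6 and KO5, the highest libraries of their groups for Ccnd1, Ccnd2 and Ccnd3, had the lowest such sums, at 3542 and 3966 CPM. Neurod1 weighs most in these sums, with 12106 to 64999 counts per compared library, where Tubb3, the next, had 7906 to 15326. Of the differentiating markers 8 of 10 were tested, 3 with higher and 2 with lower values under an unadjusted p of 0.05, against 11.8% and 10.1% of all genes. Their median log2 fold change was -0.12, with 5 of the 8 below 0. Their part in the Cdkn1b and D cyclin values was not tested.

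Cdkn1a (chromosome 17, 29090976 to 29100727, plus strand), a p53 target that halts the cycle after damage, ranged from 25.7 to 35.01 CPM in wild type (median 29.2) and from 24.5 to 32.0 CPM in knockout (median 25.8). Its groups overlapped, with a log2 fold change of -0.15 and a 95% interval from -0.41 to 0.11. Cdkn1c (chromosome 7, 143458339 to 143461050, minus strand), an imprinted inhibitor, ranged from 55.4 to 94.9 CPM in wild type (median 73.3) and from 66.2 to 93.2 CPM in knockout (median 77.8), with a log2 fold change of 0.08 and a 95% interval from -0.21 to 0.37. The knockout values of Cdkn1c all lay inside the wild-type range.

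Of the INK4 inhibitors, Cdkn2c (chromosome 4, 109660876 to 109667189, minus strand), which restrains CDK4 and CDK6 and acts as a tumour suppressor in granule precursors, was at 252.1 (WT1), 344 (WT3), 272 (WT5), 241 (WT6) and 312 (WT7) CPM. In knockout it was at 310 (KO2), 340 (KO3), 247 (KO5), 318 (KO6) and 371 (KO8) CPM. Only KO8 lay outside the wild-type range, and the log2 fold change of 0.16 had a 95% interval from -0.10 to 0.41 (edgeR adjusted p = 0.456). With the GC trend removed it was 0.35 (unadjusted p = 0.0299, adjusted p = 0.275 in edgeR's test). WT2 had 322 CPM and KO4 199.7 CPM, the opposite order. Cdkn2d (chromosome 9, 21288410 to 21291407, minus strand), the INK4 inhibitor that postmitotic neurons keep, had the smallest spread for its level in wild type, from 134 to 156 CPM, and spread from 113 to 182 CPM in knockout. Its log2 fold change was 0.06 with a 95% interval from -0.19 to 0.30.

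Fold changes of Ccnd1, Ccnd2, Cdkn1b, Cdkn1c and Cdkn2d did not keep a direction under every other setting. The log2 fold change of Ccnd2 was -0.07 with library size alone, and those of Cdkn1c and Cdkn2d were then -0.01 and -0.03. Ccnd3, Cdk4, Cdkn1a, Cdk6 and Cdkn2c kept their sign in all 23 alternative fits, but some values came close to 0. Cdk4 was at -0.14 with KO2 counted as wild type, Cdkn1a at -0.02 with the GC trend removed, and Cdkn2c at 0.03 with all 12 libraries. A single library decided whether members were called: without KO5, Ccnd3 (log2 fold change -0.85, adjusted p = 0.00260) and Cdk4 (-0.40, adjusted p = 0.00815) passed in edgeR's test, in a fit in which 3108 genes passed. Without KO5, 6 of the 10 members and 36.1% of all genes were under an unadjusted p of 0.05. With all 12 libraries 0 members were under that level in edgeR's test, where 3.47% of all genes were, and the log2 fold change of Cdk4 was -0.13 and of Ccnd3 -0.44. Without a filter beyond a count of 1, Ccnd3 also passed (adjusted p = 0.0139), in a fit in which 965 genes passed.

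**Figure D5:**
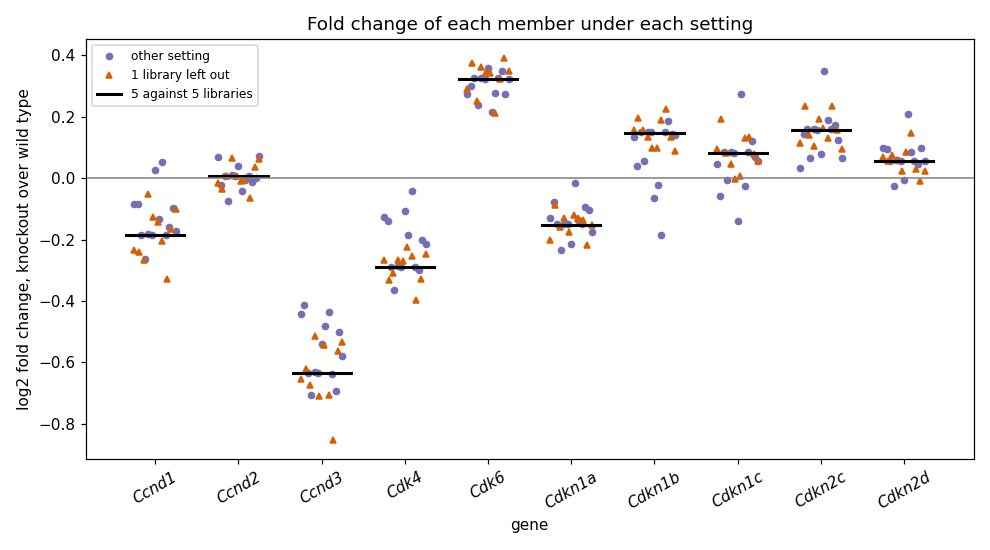
Log2 fold change of each member in the comparison of 5 against 5 libraries (black line), with 1 library left out (triangles) and under the other settings (circles). Ccnd3 stays lowest at -0.85 to -0.41, Cdk6 stays above 0, and Ccnd2 and Cdkn2d scatter around 0.

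Of 33 other genes of the G1 and retinoblastoma pathway, 32 were tested and Cdkn2a was under the filter. None passed over all genes in edgeR's test. DESeq2 called 2 of them, Ambra1 (adjusted p = 0.0309) and Ccndbp1 (adjusted p = 0.0432), both lower in knockout, where it called 3.46% of all genes. Without a filter beyond a count of 1 edgeR called Fbxo31 (adjusted p = 0.0192), where 3.49% of all genes were called. Without KO5 it called 8, 4 in each direction, where 23.3% of all genes were called. At an unadjusted p under 0.05, 2 had higher and 5 had lower values in knockout, against 11.8% and 10.1% of all genes. The median log2 fold change was -0.02. For 2 of the 32 the groups did not overlap, both lower in knockout, against 1.32% of all genes lower. They were Ambra1, the ubiquitin ligase receptor that removes D cyclins (25.4 ± 2.52 CPM in wild type, 18.8 ± 1.09 CPM in knockout; SD, n = 5 each; log2 fold change -0.43, SE 0.12), and Ccndbp1, a D cyclin binding protein (70.3 ± 4.19 and 56.5 ± 4.94 CPM; -0.32, SE 0.10). Their adjusted p in edgeR's test was 0.130 and 0.132. Both had the opposite order in the marked libraries: for Ambra1 16.2 CPM (WT2) and 20.2 CPM (KO4), for Ccndbp1 56.3 and 71.6 CPM. The kinase chaperone cofactor Cdc37 was at 172 ± 15.5 and 135 ± 19.9 CPM, and Fbxo31, another ubiquitin ligase subunit for Ccnd1, at 38.7 ± 6.24 and 27.5 ± 7.62 CPM. On the higher side, the retinoblastoma gene Rb1 averaged 117 ± 32.0 CPM (wild type) and 192 ± 66.7 CPM (knockout; log2 fold change 0.72, SE 0.25, adjusted p = 0.149), where WT2 had 273 CPM and KO4 87.0 CPM. The repressor E2f5 was at 35.3 ± 3.05 and 43.5 ± 7.60 CPM. WT2 and KO4 ran the other way for Cdc37 (101 and 161 CPM), Fbxo31 (24.8 and 29.2 CPM) and E2f5 (55.55 and 32.1 CPM).

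Of 20 known upstream regulators of the members, all were tested and none passed in edgeR's test. DESeq2 called 2, Mycn (adjusted p = 0.0297) and Tgfbr1 (adjusted p = 0.0306), both higher in knockout, where it called 3.46% of all genes. Without a filter beyond a count of 1 edgeR called Bmi1, Tgfbr1 and Trp53, where 3.49% of all genes were called. Without KO5 it called 7, where 23.3% of all genes were called. In the comparison itself 4 had higher and 3 had lower values with an unadjusted p under 0.05, against 11.8% and 10.1% of all genes. The median log2 fold change was 0.03. Mycn, the Myc family member of these precursors, averaged 263 ± 31.4 CPM (wild type) and 335 ± 19.4 CPM (knockout), a log2 difference of 0.35 (SE 0.10; edgeR adjusted p = 0.130). Smo, the signal transducer of Sonic hedgehog, averaged 124 ± 12.5 CPM (wild type) and 99.8 ± 17.99 CPM (knockout). Trp53, which induces Cdkn1a, was at 71.6 ± 9.42 and 53.8 ± 18.1 CPM, and Men1, which acts on Cdkn1b and Cdkn2c in endocrine cells, at 53.2 ± 6.84 and 42.4 ± 8.98 CPM. Bmi1, a Polycomb repressor of the Cdkn2a locus, was at 486 ± 97.3 and 646 ± 168 CPM, and the receptor Tgfbr1 at 125 ± 12.3 and 177 ± 38.3 CPM. WT2 and KO4 ran the other way for Mycn (355 and 339 CPM), Trp53 (32.2 and 112), Men1 (33.1 and 64.5), Bmi1 (838 and 388) and Tgfbr1 (255 and 107). For Smo they were close (71.7 and 70.3 CPM). With the GC trend removed the log2 fold change of Bmi1 was 0.15 in place of 0.41, and that of Tgfbr1 0.26 in place of 0.51. Those of Smo (-0.15 in place of -0.32), Trp53 (-0.32 in place of -0.41) and Men1 (-0.17 in place of -0.33) were also smaller. That of Mycn was larger, 0.49 in place of 0.35 (edgeR adjusted p = 0.102).

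Cycling markers gave a reference for these libraries. The 20 markers of S phase and G2/M summed to 3117 ± 237 CPM (wild type) against 2993 ± 266 CPM (knockout), mean ± SD with n = 5 each. Of these markers 2 were higher and 3 lower under an unadjusted p of 0.05, against 11.8% and 10.1% of all genes. Their median log2 fold change was -0.08, with 14 of the 20 below 0 and 6 above, where the median over all genes tested was 0.001. The marked KO4 had the highest sum of all libraries, 4035 CPM, and WT2 had 3218 CPM. The genes whose values over the 10 libraries, after removal of the group means, were most like those of a member were searched among 8673 genes with a mean of at least 10 CPM. For Ccnd1 it was Mcm5, a subunit of the replication helicase (Pearson's r 0.988, Spearman's rho 0.976), and for Ccnd2 Aurkb, a mitotic kinase (0.949 and 0.964). For Cdk4 it was Pqbp1, a splicing factor (0.979 and 0.891). Of the others they were Srebf1 for Ccnd3, Mtap for Cdk6, Psd2 for Cdkn1a, Sos2 for Cdkn1c, Bccip for Cdkn2c and Tubb5 for Cdkn2d, with r from 0.909 for Mtap to 0.974 for Bccip. These are the highest of 8673 values each over 10 libraries that share depth and GC trends, and are a description without a test.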

How the data were processed

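RNA from laser-captured external granule layer was sequenced in 12 libraries made with a NEBNext Ultra kit, per the labels' protocols. The files as deposited hold raw read counts for each gene. Per the submitters' processing notes the authors used cutadapt 1.16, STAR 2.5.3a, HTSeq 0.6.1 and DESeq2 with build mm10; the sources used here give no settings, annotation or strand option. Alignments to several places, 64.4% to 67.6% of records, and the 5 summary rows were left out. Of 53379 identifiers, 53274 matched GENCODE M21 (GRCm38). The members and lists were chosen with earlier results of these data known.

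Groups came from titles. Genes were filtered with filterByExpr (minimum count 10) and scaled by TMM over 12 libraries. The groups were compared over the 10 unmarked libraries with edgeR 4.0.16 (quasi-likelihood, robust; R 4.3.3), with Benjamini-Hochberg adjustment over 13318 genes. Intervals use the fit's degrees of freedom. Single genes were also tested by two-sided exact permutation on log2 of CPM plus 1. The procedure was also run on simulated counts. These had no shared GC trend and no deviating library, so the run does not show how the procedure behaves with such features.

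Named were all members, Skil, up to 6 genes with the smallest p of each of 2 pathway lists, and for each member the gene most alike over the libraries; that for Cdkn1b is not reported here. Alternatives were all 12 libraries, each library left out, KO2 as wild type, DESeq2 1.42.0, limma 3.58.1 voom with quality weights, RLE factors, library size alone, 2 other filters, the library number as a block, and the GC trend (spline, 5 degrees of freedom) as an offset, alone and with the block. Fits without only WT2 or only KO4 were added after seeing the data.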

Additional observations from a re-analysis of the deposited data

Results flagged for a closer look

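The CPM of the members and Skil was examined in each group over the 5 compared libraries and again over the 6 with the marked library, and 4 log2 ratios between members over the 5. In these 52 tests 1 library stood apart from its group. Cdkn1a in KO6 was at 31.97 CPM, where the other 5 knockout libraries, KO4 included, were at 24.1 to 27.1 CPM; the gap to the next value was 0.627 of the group's range. Chance flags about 1 in 20 such groups.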

How the results depend on the processing

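The count of genes called, 3 in the comparison of 5 against 5 libraries, was 1 with all 12 libraries, 1 without only WT2, 0 with KO2 counted as wild type, 5 with the GC trend removed, 461 with DESeq2 and 965 with no filter beyond a count of 1. Leaving out 1 library at a time gave 0 (without WT7 or KO2) to 3108 (without KO5), with 1 without WT6 or KO8 and 6 without KO6. The count of members under an unadjusted p of 0.05 was 3, and it was 0 with all 12 libraries, with KO2 counted as wild type and without only KO4, where 3.47%, 5.61% and 3.63% of all genes were under that p. Leaving out 1 library gave 1 (without WT1 or KO3, where 16.6% and 14.3% of all genes were) to 6 (without KO5, 36.1%). Among the 10 compared libraries only the numbers 3, 5 and 6 occurred in both groups, too few to tell whether the library number pairs the samples. KO2 shares its number with the marked WT2, which was not compared. Residuals of these same-numbered libraries correlated at 0.14, -0.07 and 0.11. Pairs of different number ranged from -0.31 (WT3 with KO5) to 0.36 (WT6 with KO5), and WT3 correlated best with KO2 (0.30). With the replicate block, WT1, WT7, KO2 and KO8 stood alone under their number, so the fold changes came from the other compared libraries. In that smaller comparison the genes called and the members under an unadjusted p of 0.05 were both 0 in edgeR's test. There 4.57% of all genes were under that p, and both counts were also 0 with the block and the GC trend removed. The cause of these differences was not tested.

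Signs turned for Ccnd1, Ccnd2, Cdkn1b, Cdkn1c, Cdkn2d and Bmi1. With the replicate block only same-numbered libraries contributed to the fold change. The log2 fold change was then 0.027 for Ccnd1, -0.063 for Cdkn1b, -0.140 for Cdkn1c and -0.007 for Cdkn2d. With the block and the GC trend removed it was 0.054 for Ccnd1, -0.005 for Ccnd2, -0.184 for Cdkn1b, -0.024 for Cdkn1c and -0.037 for Bmi1. Cdk4 was at -0.106 with the block and -0.041 with both. With the GC trend alone removed it was -0.040 for Ccnd2 and -0.023 for Cdkn1b. With KO2 as wild type it was -0.021 for Ccnd2 and -0.059 for Cdkn1c, with library size alone -0.074 for Ccnd2, -0.005 for Cdkn1c and -0.025 for Cdkn2d, and with voom -0.012 for Ccnd2. With 1 library left out Ccnd2 ranged from -0.064 to 0.067, Cdkn1c from -0.004 to 0.194 and Cdkn2d from -0.009 to 0.148. With the longest transcript as length, 6 of the 10 members kept their place in the order by level. Depth limits Ccnd3 most, at 94 to 254 reads per library.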

Other observations

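Among the members with GC-rich transcripts, Cdkn2c and Cdk4 tended in opposite directions over the libraries' GC trend. Its longest transcript has 58.0% GC, above the 56.7% of Ccnd3 and the 53.3% of Cdk4, and its values tended to be higher where the trend was low, with 371 CPM in KO8 (trend -0.20) and 340 CPM in KO3 (-0.24) against 241 CPM in WT6 (0.30) and 247 CPM in KO5 (0.20). The order was not strict: WT3 had 344 CPM at a trend of 0.05, and WT7 had 312 CPM at 0.17, above KO2 with 310 CPM at -0.23. Cdk4 was at 595 and 608 CPM in KO8 and KO3 and at 871 and 865 CPM in WT6 and KO5. Summed over roles, the D cyclins stood at 86.6 ± 12.2 CPM per kb in wild type and 83.1 ± 13.3 CPM per kb in knockout (SD, n = 5 each).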
